A study of Mus musculus with 6 samples.

Results

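The proteasome transcripts described here are the 50 genes of the count table, of 27179 in all, whose mouse symbol begins with Psm, a letter from a to g and a number. Of 57 matching symbols in the RefSeq annotation, 6 were pseudogenes, which the choice leaves out, and the protein-coding Psme2b was not analysed here. By their known roles the 50 genes fall into 19 of the 20S core (8 alpha, 7 constitutive beta and 4 special beta genes), 20 of the regulatory particle (6 ATPases, 11 non-ATPases and 3 assembly chaperones of its base) and 11 others. The others are 5 activators and inhibitors (Psme1 to Psme4 and Psmf1), 4 assembly chaperones of the core (Psmg1 to Psmg4), and Psmc3ip and Psme3ip1, which are named for binding a subunit and are kept apart from the subunits.

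RNA came from bone marrow stromal cells of P2 mice of the strain C57BL/6 with the genotype Cxcl12-dsred/+, in which a red fluorescent reporter stands in 1 Cxcl12 allele. The cells were sorted as DsRed-positive and negative for CD45, Ter119 and CD31, markers of blood, erythroid and endothelial cells. All 3 groups are fractions of such RNA selected for poly(A): RNA bound by an antibody to N6-methyladenosine (m6A), RNA bound by IgG beads as background, and Input, 6% of the RNA kept back from the pull-down, with 2 libraries each. The labels do not say that the libraries of a group came from separate animals or separate pull-downs, so the spread behind a p-value may be technical.

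The proteasome degrades proteins that carry chains of ubiquitin. Its barrel-shaped core is built of rings of alpha and beta subunits, and a few of the beta subunits carry the proteolytic sites. The regulatory particle caps the barrel: its non-ATPase subunits bind and remove ubiquitin, and its ring of ATPases unfolds the substrate and feeds it into the core. In immune and interferon-treated cells, special beta subunits replace the catalytic ones and form the immunoproteasome, which favours peptides for antigen presentation. m6A is an internal modification of mRNA, often placed within a GGACT sequence and most frequent near stop codons and in long exons. No step that breaks the RNA is named in the labels, and counts per gene cannot place a modified base.

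The letters GGACT occur in the coding sequence of members that ended on either side of the comparison. The windows below show, for 5 transcripts called higher after the pull-down (Psmb3, Psmb5, Psmb6, Psmb10, Psmd12) and for the 3 that were lower (Psmd1, Psmd6, Psmd14), 30 bases around a coding GGACT. Of the motifs whose 30 bases lie within 1 coding exon, the one nearest to the coding end is shown, which leaves 1 coding GGACT each of Psmd12, Psmd6 and Psmd14 out of the choice. Capitals mark the motif. The transcript strand is printed, the transcripts are GENCODE M21 and the positions are on GRCm38.
Psmb3, chr11:97703883-97703912, plus strand: gatggtgaccacGGACTtccagaagatctt
Psmb5, chr14:54617891-54617920, minus strand: tgcagatctgctGGACTtgggtccggggag
Psmb6, chr11:70525920-70525949, plus strand: ggttctaggagcGGACTccaggacaaccac
Psmb10, chr8:105937690-105937719, minus strand: cacgcaagaccgGGACTaccatcgcggggc
Psmd12, chr11:107494675-107494704, plus strand: cactcttgttgaGGACTatggggtggagct
Psmd1, chr1:86128157-86128186, plus strand: ccttacagtccaGGACTgggcacactcata
Psmd6, chr14:14116863-14116892, minus strand: ctcctaaggatcGGACTcttttatatggat
Psmd14, chr2:61785472-61785501, plus strand: attgacacttcaGGACTacagtgaacactg
The motif shown lay 500 (Psmb3), 704 (Psmb5), 563 (Psmb6), 699 (Psmb10), 398 (Psmd12), 603 (Psmd1), 721 (Psmd6) and 230 (Psmd14) bases before the coding end. A match is a description of the letters and not a modified site.

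Depth, as the total deposited count, was 6102070 and 5133237 for anti-m6A, 2487148 and 1278735 for IgG and 7125578 and 9493391 for Input. Genes with counts numbered 12714 and 12391 in anti-m6A, 3266 and 2723 in IgG and 10024 and 11186 in Input. Proteasome transcripts took 1.60% (exact 95% interval 1.59 to 1.61) and 1.68% (1.67 to 1.70) of the anti-m6A counts, 1.49% (1.48 to 1.51) and 1.49% (1.47 to 1.51) of the IgG counts and 1.15% (1.14 to 1.16) and 1.43% (1.42 to 1.44) of the Input counts. The intervals cover counting error only, because reads amplified without molecular identifiers can repeat 1 molecule. Among transcripts with 20 or more counts in a pair of replicates, the variance between replicates was 9.93 times that of random sampling in anti-m6A, 21.9 times in IgG and 119 times in Input. Over the proteasome transcripts alone it was 10.5 times in anti-m6A, 8.58 times in IgG and 179 times in Input. Of the 10 stromal markers, all were detected in the anti-m6A and Input libraries. Their summed level was 4405 and 4585 CPM (counts relative to a library size corrected by TMM) in anti-m6A, 4322 and 4176 CPM on IgG beads and 9358 and 9939 CPM in Input. The 13 blood transcripts summed to 1105 and 1289 CPM in anti-m6A, 6179 and 5242 CPM on IgG beads and 507 and 802 CPM in Input. Globins, S100a8 and S100a9 made up most of the blood sum in IgG, and 5 or 6 of the 13 were detected in each pull-down library and 6 and 7 in Input. Ptprc (CD45), Cd79a, Cd79b and Elane were at 0 in all 6 libraries. Other blood markers were not: Mpo had 382 and 240 CPM on IgG beads alone, Vpreb1 28.2 and 36.8 CPM in anti-m6A alone, Csf1r 21.3 and 10.5 CPM in Input alone, and Lyz2 181 counts in Input replicate 2 alone. The 6 endothelial transcripts summed to 10.4 and 9.33 CPM in anti-m6A, were at 0 in IgG and summed to 41.2 and 72.4 CPM in Input. These sums moved with the groups, and their part in the results below was not tested. The libraries are bulk fractions, in which fewer cells of a type and less RNA per cell cannot be told apart.

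Of the 50 proteasome genes, 49 passed the filter on low counts and were tested. Psmb11, the beta subunit of the thymus, was at 0 in all 6 libraries. All 49 tested members had counts in both anti-m6A libraries, 48 in each Input library and 19 in each IgG library. Per-library values follow for the members that a rule picked (the largest and smallest change of each class, the catalytic and special beta genes, the scaffolds, the ubiquitin receptor and the deubiquitinase of the particle, and members called in opposite directions). Psma7, Psmc1, Psmd6, Psmd7, Psmd12, Psme2 and Psmg3 were added after their values were seen. Reads of overlapping genes cannot be told apart without strand. Psmd1 overlaps Htr2b, Psmd10 overlaps Atg4a, Psme1 overlaps Emc9, Psme4 overlaps Erlec1, Psmf1 overlaps Tmem74b and Psmc3ip overlaps Mlx. Psma4 overlaps AY074887 and Psme3ip1 overlaps Rspry1, both protein-coding. Psma3 overlaps the long noncoding 3110056K07Rik, and Psmb5 overlaps the microRNA gene Mir686.

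**Figure D1:**
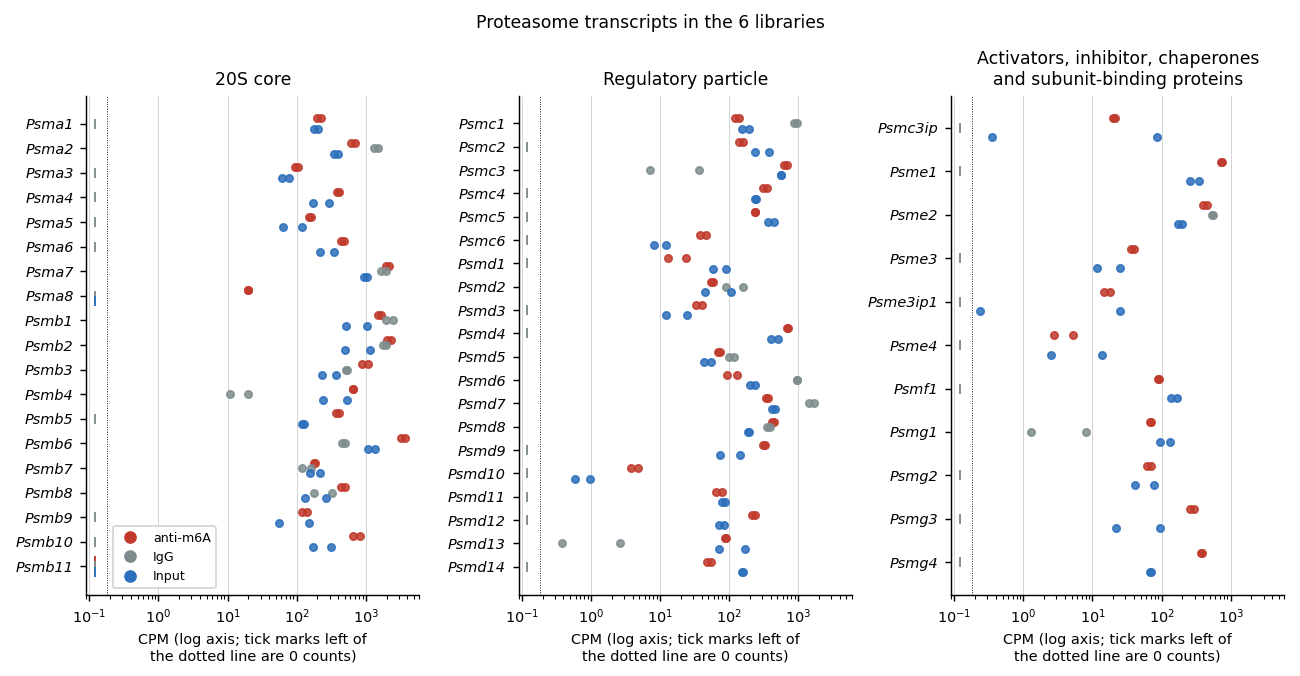
CPM of each proteasome transcript in each of the 6 libraries (log axis, 1 point per library, n = 2 per group; red anti-m6A, grey IgG, blue Input), with tick marks at the left edge for libraries at 0 counts. All 49 tested members have counts in both anti-m6A libraries, and 30 of them are at 0 in both IgG libraries.

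Anti-m6A was set against Input to ask which proteasome transcripts took a larger or smaller share of the RNA after the pull-down. By edgeR's quasi-likelihood test at a Benjamini-Hochberg adjusted p of 0.05, 16 of the 49 members were higher in anti-m6A and 3 were lower, where 28.0% of all 11281 genes tested were higher and 20.5% were lower. The members' median log2 change was 0.70, beside 0.18 over all genes tested. The higher members were Psma2, Psma7, Psma8, Psmb2, Psmb3, Psmb5, Psmb6 and Psmb10 of the core, Psmc6, Psmd8, Psmd9, Psmd10 and Psmd12 of the regulatory particle, and Psme1, Psme2 and Psmg4. Of these, Psma8 and Psmd10 passed the filter on low counts only through anti-m6A, the group where they are high. The lower members were Psmd1, Psmd6 and Psmd14, all non-ATPases of the regulatory particle. Both anti-m6A values lay above both Input values for 30 members, below them for 9 and among them for 10, beside 4999, 3881 and 2401 of all genes tested.

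Leaving out either anti-m6A library removed most calls, among the members and over all genes. None of the 19 called members changed sign in those fits. The log2 change of Psmb5 was 1.74 without replicate 1 and 1.52 without replicate 2, and that of Psmd1 -2.50 and -1.69. The spread then came from the IgG and Input pairs alone, so the lost calls do not show that the changes rest on 1 library. Without either Input library more members were called, and without either IgG library about as many as in the full fit. These shifts were not set beside all genes and are not read as results about the members. The scaling of the libraries moved the split as well, to 12 higher and 8 lower with DESeq2's size factors and to 11 and 8 with library totals alone. Of all 11281 genes, those scalings called 2711 higher and 2982 lower, and 2609 higher and 3127 lower. Those scalings put the median of all genes at -0.22 and -0.32. The medians of the core and of the particle are therefore also given relative to that of all genes.

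**Figure D2:**
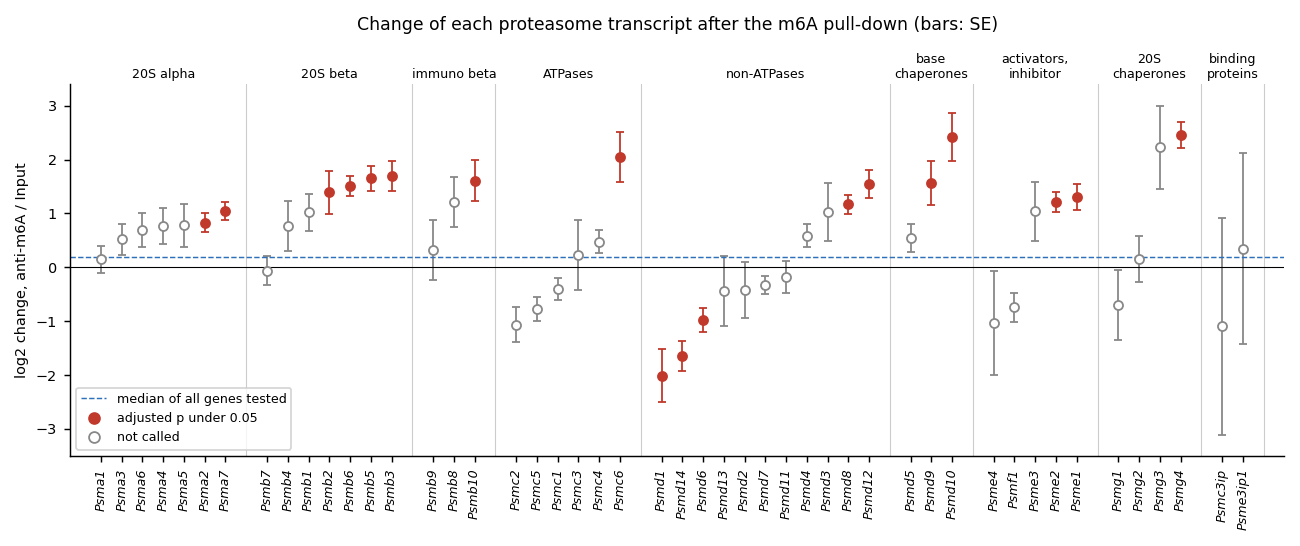
Log2 change, anti-m6A over Input, of each tested proteasome transcript with its SE, ordered within its class (filled red points: edgeR adjusted p under 0.05; open points: not called; dashed line: the median of all genes tested, 0.18). Psma8, at 0 in both Input libraries, is not drawn. In this fit no core transcript is called lower (1 is with DESeq2's Wald test and 1 with the length trend removed), and the 3 transcripts called lower are Psmd1, Psmd14 and Psmd6.

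The alpha subunits form the outer rings of the core and its gate. Of the 8 alpha genes, 3 were called higher than Input and 0 lower, with a median log2 change of 0.77. Psma2 (chromosome 13, 14613242 to 14625673) had 610 and 699 CPM in anti-m6A, 1501 and 1331 CPM on IgG beads and 346 and 391 CPM in Input. It was the only member called higher than Input and lower than IgG. Its log2 change was 0.83 ± 0.17 (SE) against Input (edgeR adjusted p = 0.0148) and -1.11 ± 0.17 against IgG (edgeR adjusted p = 0.00286). With DESeq2's size factors the change against Input was 0.39 (edgeR adjusted p = 0.11).

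Psma7 (chromosome 2, 180036367 to 180042464), a subunit of the alpha ring, was higher by 1.05 ± 0.16 (SE) on the log2 scale (edgeR adjusted p = 0.00734). It had 1945 and 2175 CPM in anti-m6A, 1976 and 1659 CPM on IgG beads and 943 and 1052 CPM in Input, so that anti-m6A and IgG overlapped. Psma8 (chromosome 18, 14706135 to 14762301), the alpha subunit of the testis proteasome, had 19.9 and 19.7 CPM in anti-m6A and 0 in both IgG and both Input libraries. That is at least 61.3-fold higher than the Input floor of 3 counts per library, from 96 and 78 counts. Psma8 passed the filter on low counts only through anti-m6A, where it is high, so its call is no support. Psma1 (chromosome 7, 114264550 to 114276116) had the smallest change of the class, with 224 and 199 CPM in anti-m6A, 0 in IgG and 179 and 204 CPM in Input. Its groups overlapped, and its log2 change was 0.15 ± 0.24 (SE; edgeR adjusted p = 0.663). The remaining Psma3, Psma4, Psma5 and Psma6 had log2 changes of 0.52 to 0.78 that did not pass the test, and both anti-m6A values of each lay above both Input values. Of the words of Psma5, Psma4 and Psma3, 55.4%, 31.5% and 22.02% are shared with other genes, pseudogenes among them, so their counts are uncertain.

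Of the 7 constitutive beta genes, 4 were higher and 0 lower, with a median log2 change of 1.39. The catalytic subunits differed among themselves. Psmb6 (chromosome 11, 70525324 to 70527858), which carries the caspase-like activity, had 3255 and 3662 CPM in anti-m6A, 507 and 458 CPM on IgG beads and 1063 and 1368 CPM in Input. It had the most counts of all members in the anti-m6A and Input libraries, and its values in the 3 groups did not overlap. Its log2 change was 1.51 ± 0.19 (SE) against Input (edgeR adjusted p = 0.00716) and 2.84 ± 0.19 against IgG (edgeR adjusted p = 0.000559), and the first was kept when either anti-m6A library was left out.

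Psmb5 (chromosome 14, 54614120 to 54617995), the chymotrypsin-like subunit and the target of bortezomib, had 366 and 405 CPM in anti-m6A, 0 in both IgG libraries and 126 and 120 CPM in Input. It was higher by 1.65 ± 0.23 (SE) on the log2 scale (edgeR adjusted p = 0.0082). Of its 50-base words, 57.1% also occur in transcripts of other genes, pseudogenes among them, so its counts are uncertain. Psmb7 (chromosome 2, 38588046 to 38643952), the trypsin-like subunit, had 177 and 182 CPM in anti-m6A, 163 and 121 CPM on IgG beads and 158 and 217 CPM in Input. Its values in anti-m6A and Input overlapped, and its log2 change was -0.06 ± 0.27 (SE; edgeR adjusted p = 0.871). Of the words of Psmb7, 28.08% are shared with the protein-coding gene Nek6, so its counts are uncertain.

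Psmb3 (chromosome 11, 97703434 to 97713500), a structural beta subunit, had the largest change of the class, 1.70 ± 0.27 (SE; edgeR adjusted p = 0.00755). It had 896 and 1062 CPM in anti-m6A, 529 and 515 CPM on IgG beads and 234 and 370 CPM in Input. The 3 groups did not overlap, although 55.8% of its words are shared with other genes, pseudogenes among them. Psmb2, another structural subunit, was higher by 1.39 ± 0.40 (SE; edgeR adjusted p = 0.0375), a call lost with DESeq2's size factors (edgeR adjusted p = 0.0702). Psmb1 and Psmb4 had log2 changes of 1.02 and 0.76 that did not pass the test.

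The labels name no interferon treatment of these cells. Psmb8 (chromosome 17, 34198195 to 34201454), which replaces Psmb5, had 439 and 494 CPM in anti-m6A, 330 and 178 CPM on IgG beads and 133 and 270 CPM in Input, a log2 change of 1.21 ± 0.46 (SE) that did not pass the test (edgeR adjusted p = 0.081). Psmb9 (chromosome 17, 34182030 to 34187330), which replaces Psmb6, had 122 and 140 CPM in anti-m6A, 0 in IgG and 55.9 and 153 CPM in Input, with overlapping groups and a log2 difference of 0.33 ± 0.56 (SE; edgeR adjusted p = 0.669). Psmb10 (chromosome 8, 105935728 to 105938392), which replaces Psmb7, had 656 and 828 CPM in anti-m6A, 0 in IgG and 172 and 315 CPM in Input. It was the 1 special beta gene of 3 tested that was called, higher by 1.61 ± 0.38 (SE; edgeR adjusted p = 0.03), a call lost with library totals alone (edgeR adjusted p = 0.0564).

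Set against the subunit it replaces, per kilobase of transcript, Psmb10 stood at 3.29 and 4.03 times Psmb7 in anti-m6A and at 0.963 and 1.29 times in Input. Psmb8 stood at 0.663 and 0.672 times Psmb5 in anti-m6A and at 0.585 and 1.24 times in Input. Psmb9 stood at 0.0220 and 0.0226 times Psmb6 in anti-m6A and at 0.0310 and 0.0659 times in Input. Of the 3 pairs, that of Psmb10 and Psmb7 had both anti-m6A ratios above both Input ratios, that of Psmb9 and Psmb6 had both below, and that of Psmb8 and Psmb5 lay between the Input ratios. With 2 libraries a group these ratios were not tested. Psmb5 and Psmb7 share words with other genes, so the ratios that use them are uncertain.

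The 6 ATPases form the ring at the base of the regulatory particle. Of them 1 was called higher than Input and 0 lower, with a median log2 change of -0.09. Psmc6 (chromosome 14, 45329823 to 45349074) had 46.2 and 38.1 CPM in anti-m6A, 0 in IgG and 8.28 and 12.1 CPM in Input, and was higher by 2.04 ± 0.46 (SE; edgeR adjusted p = 0.0259). Per kilobase it was also the ATPase of lowest level in anti-m6A and Input. Psmc2 (chromosome 5, 21785275 to 21803787) was the furthest below Input, with 159 and 137 CPM in anti-m6A, 0 in IgG and 241 and 378 CPM in Input. Its log2 change of -1.07 ± 0.33 (SE) did not pass the test (edgeR adjusted p = 0.0577). Psmc1 and Psmc5 had log2 changes of -0.41 and -0.77 that did not pass it either. With DESeq2's size factors all 3 passed, at edgeR adjusted p of 0.0157 for Psmc2, 0.0175 for Psmc1 and 0.0114 for Psmc5, while Psmc6 did not (0.0515). Psmc3 and Psmc4 had log2 changes of 0.22 and 0.48, not called.

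Of the 11 non-ATPases, 2 were higher and 3 were lower, with a median log2 change of -0.33. Psmd1 (chromosome 1, 86064619 to 86139295), a large scaffold, had 24.1 and 13.1 CPM in anti-m6A, 0 in IgG and 90.9 and 59.1 CPM in Input. Its log2 change against Input was -2.01 ± 0.50 (SE; edgeR adjusted p = 0.034), the lowest among the members. Psmd14 (chromosome 2, 61711694 to 61800376), the metalloprotease that cuts ubiquitin chains from the substrate, had 54.1 and 47.1 CPM in anti-m6A, 0 in IgG and 155 and 162 CPM in Input. Its log2 change against Input was -1.65 ± 0.27 (SE; edgeR adjusted p = 0.012). Both transcripts were thus below Input in anti-m6A and yet above IgG, at least 12-fold (edgeR adjusted p = 0.00208) and at least 32.6-fold (edgeR adjusted p = 0.000606) above the IgG floor. They shared the 0 in both IgG libraries with 73.4% of all genes tested.

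Psmd2 (chromosome 16, 20651122 to 20663414), the second large scaffold, had 58.3 and 54.5 CPM in anti-m6A, 161 and 89.5 CPM on IgG beads and 106 and 44.3 CPM in Input. Its anti-m6A and Input values overlapped, its log2 change was -0.42 ± 0.52 (SE; edgeR adjusted p = 0.546), and 26.4% of its words are shared with other genes. Psmd4 (chromosome 3, 95032688 to 95042614), the ubiquitin receptor known as Rpn10 in yeast, had 678 and 702 CPM in anti-m6A, 0 in IgG and 408 and 512 CPM in Input. Its anti-m6A values lay above its Input values, but the log2 change of 0.59 ± 0.22 (SE) did not pass the test (edgeR adjusted p = 0.0893).

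Psmd6 (chromosome 14, 14112185 to 14120945), a subunit of the lid, had 129 and 92.5 CPM in anti-m6A, 976 and 966 CPM on IgG beads and 235 and 201 CPM in Input. Its log2 change was -0.98 ± 0.23 (SE) against Input (edgeR adjusted p = 0.0206) and -3.13 ± 0.25 against IgG (edgeR adjusted p = 0.000609), and it was the 1 member called lower than both. Psmd12 (chromosome 11, 107479528 to 107498036), another lid subunit, had 236 and 214 CPM in anti-m6A, 0 in IgG and 71.2 and 83.5 CPM in Input, and was higher by 1.54 ± 0.26 (SE; edgeR adjusted p = 0.0129). Psmd8 was higher by 1.17 ± 0.18 (SE; edgeR adjusted p = 0.00716). The lid thus held members called in either direction. Psmd3, Psmd7, Psmd11 and Psmd13 had log2 changes from -0.44 to 1.02 and were not called. Of these, Psmd7 was called lower with DESeq2's size factors (log2 change -0.77, edgeR adjusted p = 0.0159) and with library totals alone (-0.88, edgeR adjusted p = 0.00766). It was also called lower with the length trend of each library removed (-0.79, edgeR adjusted p = 0.026).

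The base chaperones Psmd5, Psmd9 and Psmd10 help to assemble the ATPase ring and leave the finished particle. Of the 3, 2 were higher and 0 lower. Psmd10 (chromosome X, 140948425 to 140956711), also called gankyrin, had the largest change within Psmd, 2.41 ± 0.45 (SE). Psmd10 passed the filter on low counts only through anti-m6A, where it is high, so its call is no support. Its change rested on few counts: 23 and 15 in anti-m6A, 0 in IgG and 5 and 10 in Input. In CPM these were 4.77 and 3.78 in anti-m6A and 0.592 and 0.970 in Input. Psmd9 was higher by 1.56 ± 0.41 (SE; edgeR adjusted p = 0.0397), a call lost with DESeq2's size factors (edgeR adjusted p = 0.0622). Psmd5 had a log2 change of 0.54 that was not called.

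Among the activators and the inhibitor, Psme1 and Psme2, which together form the interferon-induced PA28 ring, were both higher. Psme1 (chromosome 14, 55578494 to 55581527) had 727 and 748 CPM in anti-m6A, 0 in both IgG libraries and 255 and 344 CPM in Input, a log2 difference of 1.30 ± 0.24 (SE; edgeR adjusted p = 0.016). Psme2 had 399 and 460 CPM in anti-m6A, 563 and 542 CPM on IgG beads and 172 and 198 CPM in Input, a log2 difference of 1.21 ± 0.19 (SE; edgeR adjusted p = 0.00723). The partners thus stood together in anti-m6A and Input, with Psme1 at 1.58 and 1.41 times Psme2 per kilobase in anti-m6A and 1.28 and 1.5 times in Input, while in IgG Psme1 was at 0 and Psme2 was not. Of the words of Psme2, 59.3% are shared with other genes, among them Psme2b, so its counts are uncertain. Psme4 (chromosome 11, 30771775 to 30881150), the activator PA200, had the lowest change of the class, with 5.19 and 2.77 CPM in anti-m6A, 0 in IgG and 13.9 and 2.52 CPM in Input, and its groups overlapped (log2 change -1.03 ± 0.96, SE; edgeR adjusted p = 0.434). Psme3, the nuclear activator PA28 gamma, and Psmf1, an inhibitor of the core, had log2 changes of 1.04 and -0.75 and were not called.

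The Psmg chaperones pair up to assemble the alpha ring, and 1 of the 4 was called. Psmg4 (chromosome 13, 34162964 to 34178172) had 374 and 386 CPM in anti-m6A, 0 in IgG and 69.9 and 68.5 CPM in Input. Its increase of 2.46 ± 0.23 (SE; edgeR adjusted p = 0.00716) was the largest among members with counts in Input, on the shortest transcript of the set, 555 bases. Psmg3, which pairs with Psmg4, had a log2 change of 2.23 ± 0.78 (SE) that did not pass the test (edgeR adjusted p = 0.0791). It had 256 and 292 CPM in anti-m6A, 0 in IgG and 21.9 and 95.1 CPM in Input. Of the words of Psmg3, 22.66% are shared with the protein-coding gene Gm26938, so its counts are uncertain. Psmg1 (chromosome 16, 95979933 to 95990960) had the lowest change, with 68.2 and 71.3 CPM in anti-m6A, 8.12 and 1.30 CPM on IgG beads and 94.7 and 132 CPM in Input (log2 change -0.70 ± 0.64, SE; edgeR adjusted p = 0.413), and its partner Psmg2 had a log2 change of 0.15. Psmc3ip and Psme3ip1, which are no proteasome subunits, had 3 and 899 and 2 and 262 counts in the Input libraries and were called in none of the comparisons with all libraries. Their log2 changes against Input, -1.10 for Psmc3ip and 0.35 for Psme3ip1, rested on which Input library was used. For Psmc3ip the change was -2.07 without Input replicate 1 (edgeR adjusted p = 0.00116) and 5.73 without replicate 2 (edgeR adjusted p = 0.000825). For Psme3ip1 it was -0.61 without Input replicate 1 (edgeR adjusted p = 0.085) and 5.94 without replicate 2 (edgeR adjusted p = 0.00107).

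The 20S core and the regulatory particle were then set side by side. Of the 18 core genes tested, 8 (44.4%) were called higher in anti-m6A and 0 lower. Of the 20 regulatory particle genes, 5 (25.0%) were higher and 3 (15%) lower, and 3 and 3 of the 17 without the base chaperones. The higher genes include Psma8 in the core and Psmd10 in the particle, which passed the filter only through anti-m6A. Over all genes tested 28.0% were higher and 20.5% lower, shares near those of the particle. The core median was 0.93 and that of the particle 0.02 on the log2 scale, or 0.74 and -0.16 relative to the median of all genes tested. With DESeq2's size factors the medians were 0.50 and -0.42, and with library totals alone 0.39 and -0.52, so the particle's median changed sign while its distance from the median of all genes stayed at -0.21 and -0.20. In the core, both anti-m6A values lay above both Input values for 15 genes, below for 0 and among them for 3. In the particle the numbers were 10, 7 and 3. Over all 11281 genes tested they were 4999, 3881 and 2401, shares near those of the particle. The number of genes called in the core and in the particle changed with the library left out. Genes are not replicates, so no test was made between the classes.

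The summed counts of the core, divided by those of the particle in the same library, do not depend on scaling. This ratio was 3.36 and 3.89 in anti-m6A, 2.19 and 2.09 in IgG and 1.44 and 2.02 in Input, and the values of the 3 groups did not overlap. The beta genes gave 2.43 and 2.84 in anti-m6A, 1.38 and 1.31 in IgG and 0.888 and 1.39 in Input, and the alpha genes 0.938 and 1.05 in anti-m6A, 0.805 and 0.781 in IgG and 0.550 and 0.629 in Input. Without Psmb6 the core ratio was 2.58 and 2.98 in anti-m6A, 2.07 and 1.97 in IgG and 1.14 and 1.68 in Input. Over the 9 core and 7 particle genes that had 10 or more counts in every library it was 6.22 and 7.24 in anti-m6A, 2.19 and 2.09 in IgG and 2.33 and 3.85 in Input, so that IgG then lay below Input. A ratio within a library shows unequal change and not which side moved.

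**Figure D3:**
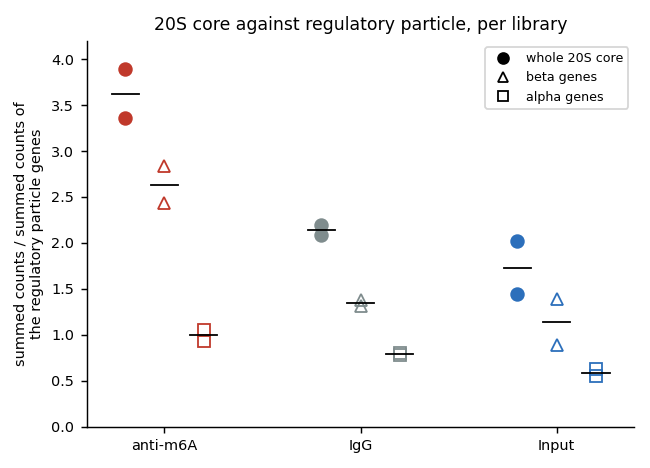
Summed counts of the 20S core genes (filled circles), the beta genes (triangles) and the alpha genes (squares), each divided by the summed counts of the 20 regulatory particle genes in the same library (1 point per library, n = 2 per group, bars: means). For the whole core the anti-m6A libraries stand at 3.36 and 3.89, above IgG at 2.19 and 2.09 and Input at 1.44 and 2.02.

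Per kilobase of transcript, levels were uneven among subunits that each proteasome holds in equal number. Over the 14 constitutive core genes (Psma1 to Psma7 and Psmb1 to Psmb7), the mean level in anti-m6A ran from 34.9 CPM per kilobase for Psma3 to 4330 for Psmb6, a 124-fold range with a median of 436. In Input it ran from 24.3 for Psma3 to 1520 for Psmb6, a 62.6-fold range with a median of 238. The same genes thus held the ends of the order in both groups. Among the ATPases the mean level in anti-m6A ran from 18.9 CPM per kilobase for Psmc6 to 405 for Psmc3, and in Input from 4.57 to 346 for the same pair. Among the non-ATPases it ran from 5.97 for Psmd1 to 518 for Psmd4 in anti-m6A, and from 8.50 for Psmd3 to 345 for Psmd4 in Input.

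Transcript length moved with the change. Core transcripts had a median length of 1192 bases and regulatory particle transcripts 1710.5, beside 2828 for the 10465 tested genes (92.8%) with a length. Over all genes tested, the median log2 change was 1.47 for transcripts of up to 1000 bases, 0.74 for 1001 to 1500, 0.16 for 1501 to 2000, -0.08 for 2001 to 3000, -0.11 for 3001 to 4000 and -0.43 above 4000. The 8 members of up to 1000 bases had a median of 1.58 and 7 of them were called higher, where 59.0% of all genes of that length were. The 17 members of 1001 to 1500 bases had a median of 0.48 with 3 higher and 1 lower, where 33.6% of all genes of that length were higher and 7.44% lower.

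Between 1501 and 2000 bases the 3 core genes had a median of 1.21 and the 8 particle genes -0.37. Between 1001 and 1500 bases the 8 core genes had a median of 0.73 and the 5 particle genes 0.48. Between 2001 and 3000 bases the order turned, with 0.67 for 2 core genes and 1.02 for 5 particle genes. Over the 49 members the log2 change had a Pearson's r of -0.24 and a Spearman's rho of -0.36 with log2 transcript length. With log2 coding length they were -0.41 and -0.54. For transcript length they were 0.09 and -0.25 within the core, -0.01 and 0.03 within the particle, and -0.14 and -0.205 over all genes. For coding length they were -0.03 and -0.19 within the core, -0.46 and -0.29 within the particle, and -0.12 and -0.20 over all genes. All are descriptions over genes of the same 4 libraries. Each library's trend over length was taken out of the fit in an alternative chosen after seeing the data. The core median was then 0.29 and that of the particle -0.15, beside 0.09 for all genes. Of the 19 calls, 11 were kept, among them Psma2, Psma8, Psmc6, Psmd12 and Psmg4 as higher and Psmd1, Psmd6 and Psmd14 as lower. The beta genes Psmb3, Psmb5 and Psmb6 were no longer called, the log2 change of Psma7 was -0.05, and Psmb7 was called lower (log2 change -0.92 ± 0.24, SE; edgeR adjusted p = 0.0316).

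**Figure D4:**
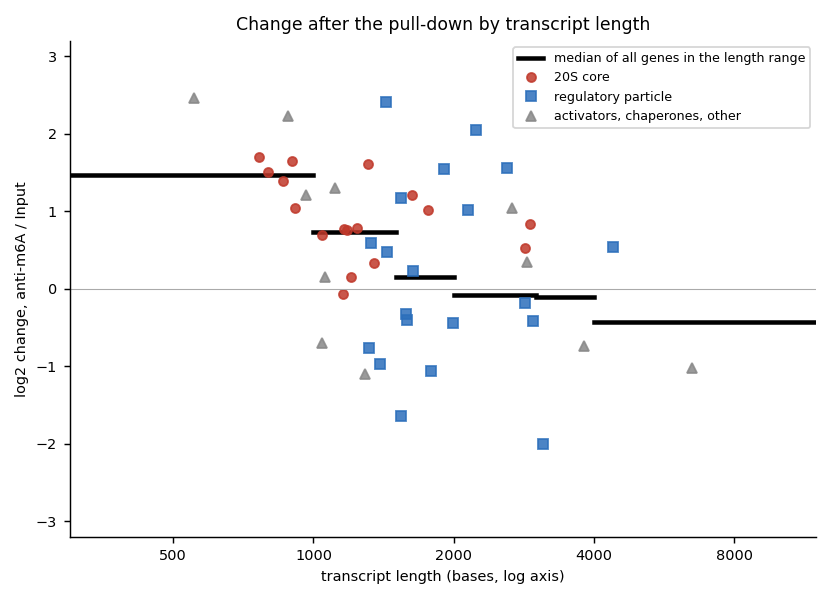
Log2 change, anti-m6A over Input, against transcript length (log axis) for each tested proteasome transcript other than Psma8 (red circles: 20S core; blue squares: regulatory particle; grey triangles: others), with black bars for the median of all tested genes in each length range. The bars step down from 1.47 for transcripts of up to 1000 bases to -0.43 for those above 4000.

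GGACT was found on either side of the comparison with Input. The motif, searched on the transcript strand, occurred in the transcripts of 12 of the 16 higher members, 3 of the 3 lower members and 25 of the 30 members not called. The higher members without it were Psma7, Psmd10, Psme1 and Psmg4. The higher members had a median of 1.51 GGACT per kilobase, the lower 1.95 and those not called 1.09, with a median of 1.06 over all genes. Core transcripts held it in 72.2% of cases and particle transcripts in 95%, beside 91.1% of all tested genes and 61.7% of those of up to 1000 bases. No match says only that these letters are not in the transcript.

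Anti-m6A was set against IgG to ask which proteasome transcripts the m6A antibody recovered beyond background beads. Of the 49 members, 34 were higher in anti-m6A and 4 lower (edgeR adjusted p under 0.05), where 73.1% of all genes tested were higher and 8.31% lower. Of the 49, 30 (61.2%) were at 0 in both IgG libraries, where 73.4% of all genes tested were. Those 30 stood in anti-m6A at least 2.56-fold (Psme4) to at least 478-fold (Psmb10) above the IgG floor, and 28 of them were called. The 2 not called were Psmc3ip and Psme3ip1. Those called include Psma8 and Psmd10, which passed the filter only through anti-m6A, where they are high, so their calls are no support. In the core 9 of 18 tested genes were at 0 in both IgG libraries, and 1 of the 7 constitutive beta genes (Psmb5), against 12 of 20 in the particle.

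The 4 members lower in anti-m6A than in IgG were Psma2 and Psmd6, given above, with the ATPase Psmc1 and the lid subunit Psmd7. Psmc1 had 141 and 121 CPM in anti-m6A, 957 and 857 CPM on IgG beads and 155 and 193 CPM in Input. Its log2 change against IgG was -2.79 ± 0.22 (SE; edgeR adjusted p = 0.000609). Psmd7 had 340 and 363 CPM in anti-m6A, 1683 and 1453 CPM on IgG beads and 460 and 423 CPM in Input, a log2 change against IgG of -2.16 ± 0.17 (SE; edgeR adjusted p = 0.000609). In these 4 transcripts IgG held the highest level of the 3 groups. More members were called lower than IgG when either Input library was left out.

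**Figure D5:**
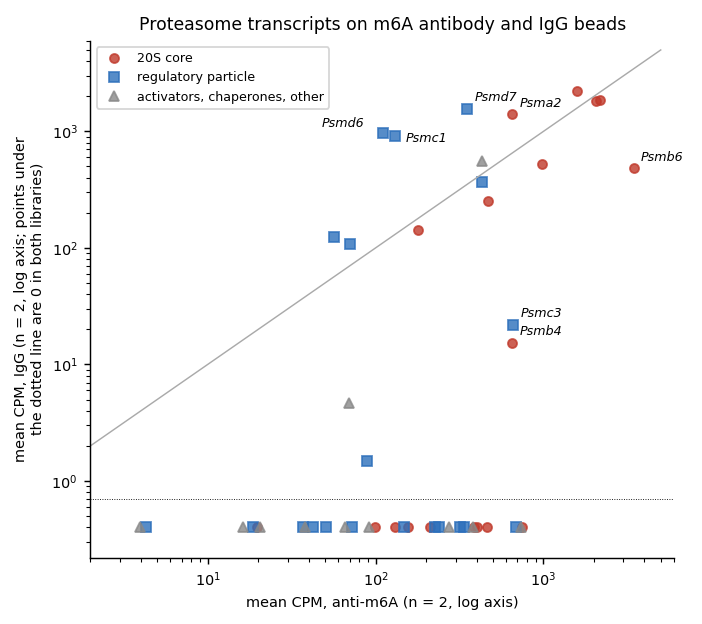
Mean CPM in IgG against mean CPM in anti-m6A for each tested proteasome transcript (log axes, n = 2 per group; red circles: 20S core; blue squares: regulatory particle; grey triangles: others), with a line at equal levels and members at 0 in both IgG libraries under the dotted line. Psmd6, Psmc1, Psmd7 and Psma2 lie above the line of equal levels, and Psmb6 lies below it.

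Members were unlike one another on the background beads. In IgG against Input, 11 were higher and 32 lower (edgeR adjusted p under 0.05), where 9.89% of all genes tested were higher and 61.5% lower. Fewer were called higher when IgG replicate 1 was left out. The 11 were Psma2, Psma7, Psmb1, Psmb2 and Psmb3 of the core, Psmc1, Psmd5, Psmd6, Psmd7 and Psmd8 of the particle, and Psme2. Their levels in IgG were 101 CPM or more, while Psmb4, Psmc3, Psmd13 and Psmg1 had IgG levels of 36.7 CPM or less against Input levels of 70.5 CPM or more. Of the 19 tested members with counts in both IgG libraries, 17 had at least 10 in each. A fit over genes that had 10 or more counts in every library called 5 of these 17 higher and 3 lower in anti-m6A against Input, beside 410 higher and 518 lower of the 1757 genes in that fit.

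The other genes of the pathway were read in 8 lists. The lists and the members were chosen with earlier results of these data known. Among 10 tested cofactors of the proteasome without a Psm symbol, 2 were called higher than Input and 3 lower. The higher ones were Pomp, the chaperone that completes the core (log2 change 1.36 ± 0.28, SE; edgeR adjusted p = 0.0216), and Sem1, a small lid subunit (1.23 ± 0.29, SE; edgeR adjusted p = 0.0207). The lower ones were Usp14 (-3.46) and Uchl5 (-1.75), deubiquitinases that bind the particle, and Ube3c (-1.71), a ligase that binds it. Ubb, a polyubiquitin gene, was higher by 1.46 ± 0.12 (SE; edgeR adjusted p = 0.00716). Ubb stood at 5354 and 5534 CPM in anti-m6A, 2163 and 2199 CPM on IgG beads and 1892 and 2064 CPM in Input. Uba1, the 1 tested activating enzyme, was not called.

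Of 7 shuttle receptors, which carry ubiquitylated proteins to the proteasome, 1 was higher and 4 were lower. Ubqln1 had 7.26 and 7.31 CPM in anti-m6A, 0 in IgG and 155 and 122 CPM in Input, a log2 difference of -4.24 ± 0.34 (SE; edgeR adjusted p = 0.00716). Ubqln4 was higher by 3.67 ± 0.77 (SE; edgeR adjusted p = 0.0148), so paralogues of 1 family were called in opposite directions. Among the others called lower, the log2 changes of Ubqln2 and Sqstm1 were -2.25 and -1.81. Of 10 genes of the p97 segregase, which pulls ubiquitylated proteins out of complexes, Nploc4 was higher and Vcp itself (-2.50 ± 0.31, SE; edgeR adjusted p = 0.00716) and Ubxn6 were lower.

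Of 5 tested transcription factors of proteasome genes, Nfe2l1, the factor that raises proteasome genes when the proteasome is inhibited, was higher by 2.19 ± 0.61 (SE; edgeR adjusted p = 0.0444), and Zfp143, at 0 in both anti-m6A libraries, was at least 14.4-fold lower (edgeR adjusted p = 0.0079). Of 10 subunits of the COP9 signalosome, a complex built like the lid, Cops6, Cops7b and Cops9 were higher and Gps1 was lower. Of 11 genes of antigen processing, B2m, H2-D1 and Tap1 were higher and Calr and H2-K1 lower. Over the 8 lists, 13 of 57 tested genes were higher and 13 lower, where 28.0% and 20.5% of all genes were. Among those called, Nploc4, Cops7b and Tap1 passed the filter only through anti-m6A, and Usp14, Ubqln2 and Zfp143 only through Input. These calls are no support, since each gene entered through the group where it is high.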

How the data were processed

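RNA bound by anti-m6A, RNA bound by IgG and Input were measured in 2 libraries each, grouped by sample title. Libraries were made by Smart-seq2, per the labels' protocols, with no strand marking and no molecular identifiers. The authors deposited raw counts per Entrez gene number. Tools named in the submitters' processing notes are featureCounts, Picard and edgeR 3.38.1, with the build mm10. The aligner is not given in the sources used here. Of 27179 gene numbers, 25275 matched a RefSeq symbol (GRCm38.p6) and 1904 did not. Coordinates are 1-based on GRCm38. Transcript lengths and motif windows come from the GENCODE M21 transcript of each gene. Copies were looked for as 50-base words shared with transcripts of other genes.

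Counts were fitted in R 4.3.3 with edgeR 4.0.16 (filterByExpr, minimum count 10, minimum total 15, 11281 genes; TMM; all 6 libraries in 1 quasi-likelihood fit with 3 residual degrees of freedom; Benjamini-Hochberg, threshold 0.05). The SE is the log2 change divided by the square root of F. A fold against a group at 0 uses a floor of 3 counts per library (0.622 and 0.756 CPM in anti-m6A, 1.16 and 1.95 CPM in IgG, 0.355 and 0.291 CPM in Input). Alternatives used DESeq2 1.42.0, other scalings, filters, a replicate block and leaving out each library. The fit was tested on simulated data. Members and lists were chosen with earlier results of these data known. Paaf1 was not analysed here. The values of some genes of the ubiquitin and shuttle receptor lists are not reported here.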

Additional observations from a re-analysis of the deposited data

How the results depend on the processing

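With 2 libraries a group, the calls against Input depended most on the anti-m6A pair. Leaving out each library in turn gave 1 to 28 members higher and 0 to 7 lower in anti-m6A than in Input, 1 to 15 higher in the core, and 0 to 7 higher and 0 to 6 lower in the regulatory particle. Against IgG it gave 4 to 7 members lower in anti-m6A, and 7 to 12 members were higher in IgG than in Input. A lone library was assumed to vary like the other groups.

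With a filter of 10 counts in every library, the higher members in anti-m6A numbered 5 against Input (core 3, particle 1) and 8 against IgG, and in IgG 5 were higher and 4 lower than in Input. That filter left 17 members. DESeq2's size factors gave 8 members lower than in Input, 3 of the particle higher and 7 lower, and 6 members higher in IgG than in Input. Library totals alone gave 8 lower than in Input, 5 of the core higher, 3 of the particle higher and 7 lower, and 9 lower than in IgG. DESeq2's Wald test gave 11 lower than in Input, 1 in the core and 8 in the particle. Of all 11281 genes, DESeq2's size factors called 2711 higher and 2982 lower than in Input, and library totals 2609 and 3127. The Wald test called 3066 higher and 3635 lower. Library totals called 1147 of all genes lower than in IgG, and DESeq2's size factors called 908 higher in IgG than in Input. A fit of the 2 groups compared gave 8 lower than in IgG and 7 higher in IgG than in Input. With the length trend removed, 11 of the 19 calls against Input were kept, 8 as higher and 3 as lower. The core to particle ratio under the filter of 10 counts was 6.22 and 7.24 in anti-m6A and 2.33 and 3.85 in Input. Counts given here without a count over all genes are not read as results about the members. The causes were not tested.

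Replicate numbers are shared by the groups, but the labels do not say what they pair. Deviations of same-numbered libraries correlated by 0.446 between anti-m6A and IgG, 0.24 between anti-m6A and Input and 0.186 between IgG and Input over 1861 genes. With the replicate block, anti-m6A against Input had 14 members higher and 3 lower, with 8 higher in the core and 3 higher and 3 lower in the particle, and 17 of the 19 calls were kept. The calls not made were those of Psmc6 (log2 change 2.06, edgeR adjusted p = 0.0852) and Psmd10 (2.44, edgeR adjusted p = 0.146). The counts with the block were not set beside all genes and are not read as results about the members.

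Among the members given per library, reversed log2 changes concerned members not called, except that of Psmb3 in IgG against Input and those of Psma7, which turned to -0.05 against Input in anti-m6A with the length trend removed and changed sign in IgG against Input with the filter of 10 counts. In anti-m6A against Input, Psma1 turned to -0.29 (DESeq2 size factors), -0.40 (library totals), -0.29 (Wald test) and -0.68 (length trend), and Psmb9 to -0.09, -0.19, -0.09 and -0.28 under the same 4, and ran from -0.20 without Input replicate 1 to 1.22 without replicate 2. Psmb7 turned to 0.01 with only the 2 groups and ran from -0.26 without Input replicate 1 to 0.18 without replicate 2, Psmd4 to -0.10 with the length trend removed, and Psmd2 and Psme4 turned to 0.36 and 0.69 without Input replicate 1 and stood at -0.92 and -1.77 without replicate 2. In anti-m6A against IgG, Psmb7 turned to -0.17 with library totals. In IgG against Input, Psmb8 turned to -0.17 with DESeq2's size factors and the Wald test, -0.59 with the filter of 10 counts, -0.11 with only the 2 groups, -0.07 without Input replicate 1 and -0.24 without IgG replicate 1, the low end of a range that reached 0.93 without Input replicate 2. The filter of 10 counts turned Psmb3 to -0.10 and Psmd2 to -0.20 there.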
